A study of Mus musculus with 24 samples.

Results

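Pieces of control mouse liver kept in formalin for 3 wk were compared with pieces of the same livers kept in formalin for 18 h, across all genes of the deposited count table. The livers came from female B6C3F1 mice that were bought at 5 to 6 weeks of age and were gavaged with corn oil alone on 21 days, and liver was collected 4 h after the final gavage. Every liver gave 3 pieces, of which 1 was snap frozen and the other 2 were fixed, embedded in paraffin and stored at room temperature (FFPE tissue). Control animals 2, 3, 4 and 6 each gave both fixed pieces, so the comparison held 4 libraries at 3 wk and 4 libraries at 18 h, that is 8 of the 24 labelled samples. The table listed 24015 genes, and 12242 of them had enough counts to be tested. Livers of 4 animals given 8 mg/kg body weight of furan a day, fixed in the same way, and the fresh-frozen pieces of control animals 2, 4 and 6 were used beside them. RNA was extracted from 2 sections of 10 micrometres at 3 wk and from 1 such section at 18 h, so formalin time and the number of sections cannot be told apart. RNA integrity numbers of the FFPE samples lay between 1.3 and 2.4, and libraries were selected on poly(A) with oligo(dT) beads and did not keep the strand.

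Formalin adds hydroxymethyl groups to the bases of RNA and links RNA to protein, and both reactions can go on while the tissue stays in the fixative. RNA recovered from such blocks is broken into short pieces, and reverse transcriptase stops at bases that still carry an adduct. Selection on oligo(dT) keeps the pieces that hold a poly(A) tail or another long run of adenosines, so in broken RNA the count of a gene leans on the part of its transcript close to such a run.

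Libraries at 3 wk were shallower and less alike than those at 18 h. Total counts were 3666173, 9708205, 10481659 and 9865040 at 3 wk (animals 2, 3, 4 and 6 in this order, here and below), against 16991744, 19315103, 16974133 and 16277165 at 18 h. With every library thinned to the total of the shallowest, 13304, 12128, 12058 and 10778 genes had a count at 3 wk and 14197, 13947, 14245 and 13848 at 18 h. The groups did not overlap in either measure, each with an exact two-sided permutation p = 0.029, the smallest that 4 against 4 libraries allow (adjusted p = 0.0615 over 56 measures). The ribosomal precursor Rn45s took 6.03%, 9.45%, 4.85% and 7.23% of the counts at 3 wk, against 7.22%, 6.84%, 6.42% and 37.3% at 18 h, so the 18 h library of animal 6 stood apart. The common dispersion among animals was 0.607 at 3 wk and 0.0348 at 18 h, and log2 levels of 2 animals correlated across genes at r = 0.834 to 0.906 at 3 wk and at 0.973 to 0.987 at 18 h. Alb (serum albumin), which marks hepatocytes, held 5.85% to 7.14% of the counts at 3 wk and 5.10% to 9.22% at 18 h, so this marker was abundant in all 8 libraries. Globin genes, which mark red blood cells, were listed at 0 in all 8. The list of red blood cell genes still held 0.00228% to 0.00345% of counts at 3 wk and 0.00268% to 0.00395% at 18 h. The globin zeros therefore do not show that red blood cells were absent.

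Of the genes tested, 1240 differed between 3 wk and 18 h (10.1% called, edgeR quasi-likelihood test with the animal as a block, Benjamini-Hochberg adjusted p under 0.05). 446 genes were higher at 3 wk (3.64%) and 794 were lower (6.49%). 104 of the higher and 280 of the lower genes moved by at least 2-fold. All 4 animals moved in the called direction for 1232 of the 1240 genes, and 1120 had groups that did not overlap, beside 2520 such genes among all tested (20.6%, with 7.71% above and 12.9% below the 18 h range). Calls were concentrated in abundant transcripts: 68.0% of genes with a mean of at least 1000 CPM were called, 45.1% of those between 100 and 1000 CPM, 14.4% of those between 20 and 100 CPM and 1.51% of those between 5 and 20 CPM. CPM are counts relative to the library total scaled with TMM factors, and fold changes are log2 values of 3 wk over 18 h with their SE. With 3 animals in place of 4 the counts called were 549 without animal 2, 609 without animal 3, 597 without animal 4 and 1711 without animal 6. More genes were lower than higher with RLE scaling (740 and 495), with Rn45s left out (783 and 455) and after thinning (771 and 479). The TMM factor of the 18 h library of animal 6 was 0.634, against 0.968 to 0.978 in the other 18 h libraries and 1.11 to 1.19 at 3 wk. Of the settings tried, only scaling to total counts turned the split over, and whether that library had a part in this was not tested. Scaled to total counts alone, the median fold change of all genes moved to 0.20 on the log2 scale, against -0.18 with TMM, and the calls became 942 higher and 122 lower, so that 88.5% of calls were higher, against 36.0% with TMM.

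Most of the strongest falls were in transcripts with long stretches rich in adenosine inside them, away from the poly(A) tail, a feature looked at after the values were seen. Of the 15 largest falls, 10 had a window of 30 nt with at least 24 adenosines outside the last 50 nt of the transcript, and of the 15 largest rises 1 did. Among all tested genes with an annotated transcript the share was 7.48%. The richest windows of 5 of these genes are shown because runs of this kind set the largest falls apart from the largest rises. Sequences are those of GENCODE M21 transcripts (GRCm38), written 5′ to 3′ on the strand of the gene, and capitals mark A.
Sec62: AAgAAAAAAcAAAAAAggAAAAAgAAAAAA
Eif5b: AAAAAgAAAAAAgAtAAgAAgAAAAAgAAA
Srek1ip1: AgAAAAAAgAAAAgAAAAAggAAAAAAAgA
Actn4: AAAAAAAAAAAAAggAAAAAAAAAActtAA
Fbxw7: AAAAAAAtgAAAAAAAAAAAcAgAAAAAAA
The windows of Sec62 (chr3:30809965-30809994, plus strand), Eif5b (chr1:38021611-38021640, plus strand) and Srek1ip1 (chr13:104837421-104837450, plus strand) lay in the coding sequence, 3070, 6554 and 1824 nt before the transcript end. Those of Actn4 (chr7:28893623-28893652, minus strand) and Fbxw7 (chr3:84977628-84977657, plus strand) lay in the 3′ untranslated region, 375 and 1541 nt before the end.

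Sec62, part of the machinery that moves proteins into the endoplasmic reticulum, had 164, 141, 157 and 179 CPM at 3 wk, against 1021, 898, 1005 and 1273 CPM at 18 h. The groups lay far apart in all 4 animals, with a log2 fold change of -2.71 ± 0.08 (edgeR adjusted p = 3.8e-07). In the fresh-frozen pieces of animals 2, 4 and 6 it had 196, 172 and 184 CPM. Eif5b, the GTPase that joins the ribosomal subunits at the start of translation, had 92.4, 109, 144 and 102 CPM at 3 wk, against 586, 563, 603 and 760.4 CPM at 18 h. It fell by 2.50 ± 0.14 on the log2 scale (adjusted p = 1.5e-05), and its fresh-frozen values of 114, 106 and 111 CPM lay within the range of the 3 wk pieces. Srek1ip1, which encodes a partner of the splicing regulator SREK1, had 24.4, 8.20, 18.2 and 11.6 CPM at 3 wk and 103, 105, 130.4 and 161 CPM at 18 h, a log2 change of -3.10 ± 0.28 (adjusted p = 0.00017). It too was low in fresh-frozen liver, at 10.9, 11.4 and 11.3 CPM.

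Actn4, an actin cross-linker, had 93.8, 104, 87.6 and 73.0 CPM at 3 wk, against 408, 363, 378 and 368 CPM at 18 h. It fell by 2.09 ± 0.11 (adjusted p = 1.5e-05), and fresh-frozen pieces lay between the 2 formalin times at 217, 215 and 193 CPM. Fbxw7, the substrate receptor of a ubiquitin ligase, had 16.8, 8.20, 15.9 and 32.7 CPM at 3 wk, against 80.8, 72.1, 78.8 and 98.7 CPM at 18 h (log2 change -2.31 ± 0.25, adjusted p = 0.00044). Psmd1, a subunit of the cap of the proteasome, held 26 adenosines in its richest window and had 76.5, 68.4, 84.7 and 75.9 CPM at 3 wk, against 297, 262, 297 and 336 CPM at 18 h, with a change of -1.96 ± 0.11 (adjusted p = 1.5e-05). In none of these 3 genes did the 3 wk and 18 h values overlap.

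Further A-rich genes fell as well, and those with the lowest counts had the widest errors. Polr2i, a subunit of RNA polymerase II, had 6.68, 5.10, 7.75 and 0.274 CPM at 3 wk, against 25.7, 31.6, 30.4 and 29.5 CPM at 18 h (log2 change -2.92 ± 0.66, adjusted p = 0.021), and 39.7% of its exon bases overlap Tbcb on the other strand, whose reads cannot be told apart without strand. Sox4, a transcription factor of progenitor cells, was almost absent at 3 wk, with 0, 0.0911, 2.83 and 0.274 CPM, against 10.7, 8.57, 15.2 and 12.1 CPM at 18 h (-5.07 ± 1.07, adjusted p = 0.015), and 54.6% of its exon bases overlap a gene on the other strand. 2210018M11Rik (-2.57 ± 0.39) and Tshz1 (-2.02 ± 0.26) were also among the A-rich genes of the 15 largest falls, with adjusted p of 0.0027 and 0.0011. Zfp281, a zinc finger factor, and Onecut2, a hepatocyte homeobox factor, each with 26 adenosines in the richest window, also fell, by 1.30 ± 0.14 and 0.90 ± 0.11 (adjusted p = 0.00045 and 0.00077).

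**Figure D1:**
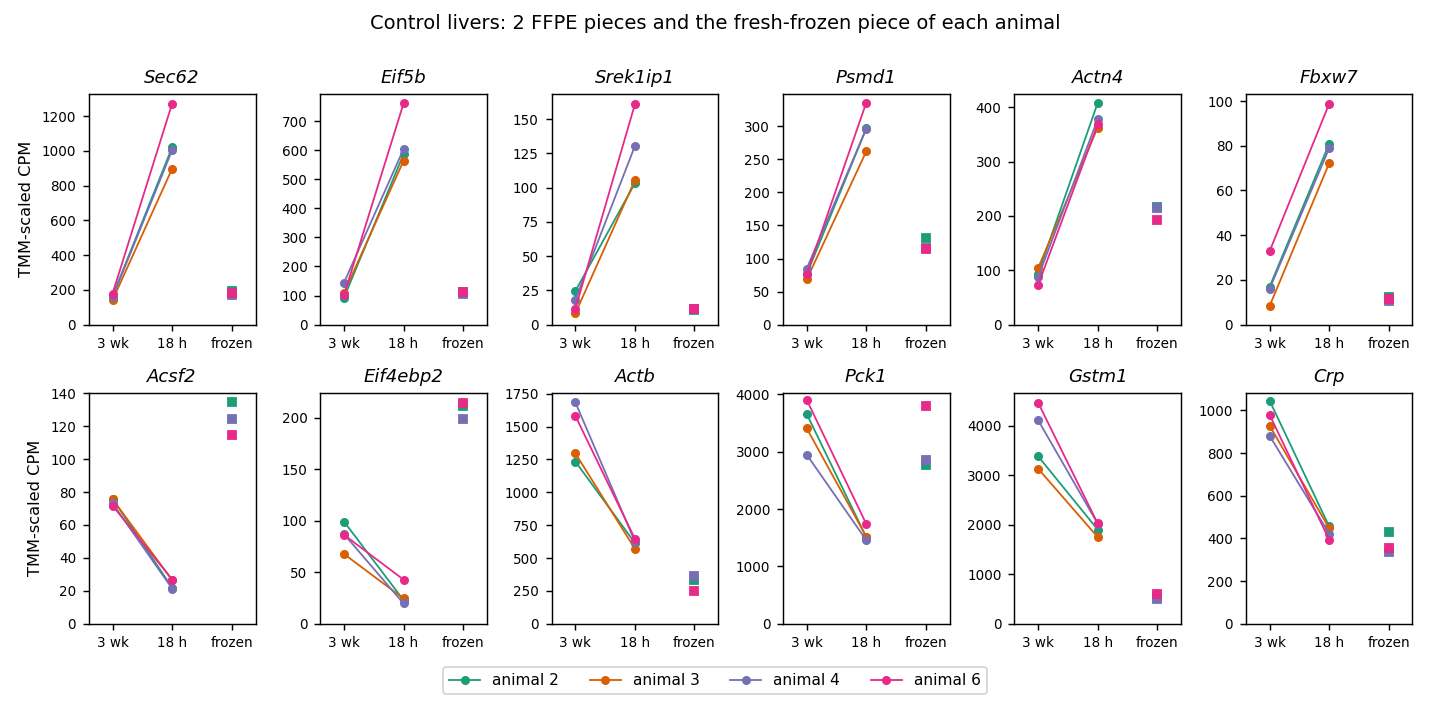
TMM-scaled CPM of 12 genes in control livers, each line joining the 3 wk piece to the 18 h piece of 1 animal, with squares for the fresh-frozen pieces of animals 2, 4 and 6. The 6 genes of the upper row were lower at 3 wk in all 4 animals, with Sec62 at 141 to 179 CPM at 3 wk and 898 to 1273 CPM at 18 h, and the 6 of the lower row were higher at 3 wk in all 4.

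The other 5 of the 15 largest falls had no window with 24 adenosines, and 4 of them were low-level genes. Nthl1, a DNA glycosylase of base excision repair, had 0 counts in all 4 libraries at 3 wk, against 6.36, 6.96, 6.75 and 6.79 CPM at 18 h. With the counts of each group pooled and 3 counts set as the floor at 3 wk, it was at least 85.7-fold lower (edgeR adjusted p = 0.022). That bound leaves out the spread among animals. Nmi, an interferon-induced partner of STAT proteins, had 12.4, 2.19, 1.25 and 0.0914 CPM at 3 wk and 18.6, 24.7, 20.3 and 18.5 CPM at 18 h (-3.55 ± 0.90, adjusted p = 0.035), so 1 of the 3 wk pieces lay near the 18 h values. Adrm1, a ubiquitin receptor of the proteasome, had a change of -3.21 ± 0.85 (adjusted p = 0.042), but 78.0% of its 50-nt words occur in another gene, which makes its counts uncertain. Baz1a, a subunit of a chromatin remodelling complex, was the best measured of these, with 9.45, 7.93, 3.58 and 14.1 CPM at 3 wk and 36.7, 25.3, 34.4 and 61.0 CPM at 18 h (-2.24 ± 0.32, adjusted p = 0.0019). The antisense RNA 2310009A05Rik, whose reads cannot be assigned to a strand, changed by -2.48 ± 0.64 (adjusted p = 0.036).

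The largest rises were a mixed set of genes for metabolism, translation, RNA export and transcription. Acsf2, an acyl-CoA synthetase of mitochondria, had 75.8, 75.6, 73.1 and 71.7 CPM at 3 wk, against 21.9, 26.5, 21.4 and 26.9 CPM at 18 h. It rose by 1.62 ± 0.17 on the log2 scale (adjusted p = 0.00039), and fresh-frozen pieces held more than both, at 135, 124 and 115 CPM. Of the 50-nt words of Acsf2, 37.2% occur in another gene. Eif4ebp2, a repressor that binds the cap-binding factor eIF4E, had 99.3, 67.8, 87.1 and 86.4 CPM at 3 wk and 22.9, 24.5, 19.7 and 42.9 CPM at 18 h (1.68 ± 0.22, adjusted p = 0.0012). It was at 211, 199 and 215 CPM in fresh-frozen liver, so for these genes the 18 h pieces were the lowest of the 3 kinds.

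Dhdh, a dihydrodiol dehydrogenase, showed the same order, with 102, 127, 101 and 152 CPM at 3 wk, 34.7, 37.4, 37.3 and 59.7 CPM at 18 h (1.53 ± 0.14, adjusted p = 0.00017) and 223, 208 and 246 CPM in fresh-frozen pieces. Alyref, an adaptor for mRNA export, had 24.0, 27.7, 22.4 and 27.8 CPM at 3 wk, against 7.70, 9.11, 7.72 and 5.14 CPM at 18 h (1.8 ± 0.33, adjusted p = 0.0070). Its fresh-frozen values, 7.70, 7.68 and 7.15 CPM, were those of the 18 h pieces, so the rises did not share 1 position relative to fresh-frozen tissue. The ETS factor Elk4 (1.57 ± 0.31), the small GTPases Arl5b (2.17 ± 0.39) and Rab31 (1.72 ± 0.41), the Notch-modifying glycosyltransferase Lfng (1.57 ± 0.43), the nucleotide receptor P2ry4 (2.10 ± 0.51), the pericyte gene Rgs5 (1.65 ± 0.43), the repressor Zbtb18 (1.5 ± 0.36), Rhpn2 (1.59 ± 0.32), Lbh (1.59 ± 0.33) and Mageh1 (2.06 ± 0.56) also rose, with adjusted p from 0.0070 to 0.047. Ttn, the giant spring protein of muscle, had the largest fold, 4.5 ± 0.78 (adjusted p = 0.0056), on values of 3.46, 118, 2.42 and 13.4 CPM at 3 wk and 0.182, 1.02, 0.663 and 0.582 CPM at 18 h.

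**Figure D2:**
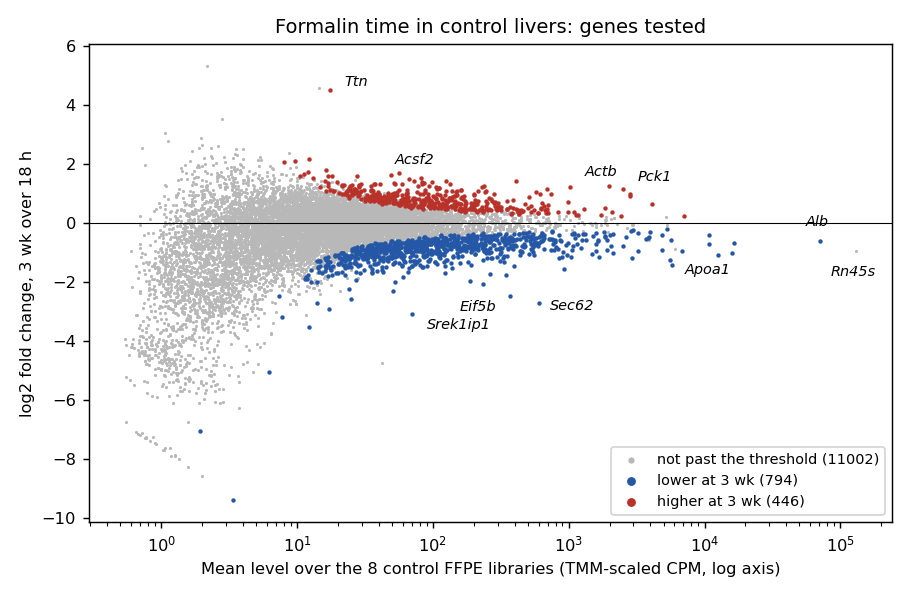
Log2 fold change of 3 wk over 18 h against the mean level over the 8 control FFPE libraries on a log axis, 1 point a gene tested. The 446 higher and 794 lower genes lie mostly above 20 CPM, while the grey points below 5 CPM spread widely and downward.

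At least 24 adenosines in a window occurred in 14.3% of all falls, and many of the others were abundant transcripts of the hepatocyte. Of 20 genes for proteins that hepatocytes secrete into blood, 16 fell and 1 rose. Alb had 52372, 57776, 62348 and 52755 CPM at 3 wk, against 83376, 85873, 94431 and 80509.9 CPM at 18 h. The groups did not overlap, and the fall was 0.61 ± 0.04 on the log2 scale (adjusted p = 2.3e-05). The other falls of the list ran to -1.06 ± 0.08 for Ambp, the precursor of the plasma protein alpha-1-microglobulin, and Cp, ceruloplasmin, was the rise at 0.28. Of 14 apolipoproteins, 11 fell and Apon rose. Apoa1, the main protein of high-density lipoprotein, had 3149.6, 3245, 3572 and 3313 CPM at 3 wk and 8458, 8033, 7828 and 7251 CPM at 18 h, with a change of -1.25 ± 0.07 (adjusted p = 1.5e-05). Apom fell by 1.34 ± 0.10 and Apoe by 1.01 ± 0.06, with adjusted p of 5.8e-05 and 3.3e-05. With RLE scaling 16 of the 20 secreted-protein genes and 11 of the 14 apolipoproteins fell, with 1 rise in each list. Scaled to total counts, none of the 20 secreted-protein genes passed in either direction, and 3 of the 14 apolipoproteins fell while 1 rose.

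Complement and coagulation genes were lower for 18 of 37 members and higher for 3, acute phase genes were lower for 7 of 18 and higher for 2, and urea cycle and amino acid catabolism genes were lower for 12 of 24 and higher for 1. Among all tested genes, 6.49% were lower and 3.64% higher. These shares are not matched for level. Of genes between 100 and 1000 CPM, 45.1% were called in either direction, and of those with at least 1000 CPM 68.0% were. No list in these results was compared with genes of its own level. A share above that of all genes is therefore not shown to be particular to a list. C3, the central complement protein, had 3183, 3409, 3426 and 3523 CPM at 3 wk, against 6219, 6325, 6549 and 6530.4 CPM at 18 h, and fell by 0.92 ± 0.05 (adjusted p = 2.0e-05). Against the direction of its list, Crp, a pentraxin of the acute phase, had 1047, 929, 882 and 981 CPM at 3 wk, against 457, 449, 423 and 395 CPM at 18 h, a rise of 1.16 ± 0.08 (adjusted p = 5.4e-05). Hp, haptoglobin, fell by 0.96 ± 0.09 (adjusted p = 0.00027). Hpd and Asl, enzymes of tyrosine breakdown and of the urea cycle, fell by 1.19 ± 0.09 and 1.16 ± 0.09 (adjusted p = 5.7e-05 and 9.3e-05). Under total-count scaling the same 3 lists had 1, 0 and 2 members lower and 2, 2 and 1 higher.

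Genes for the energy and protein machinery of all cells also fell more often than they rose, beside 6.49% lower and 3.64% higher among all tested genes. Those all-gene shares are again not matched for level. Of 76 tested nuclear genes for the respiratory chain and ATP synthase, 51 fell and none rose (0 with TMM, RLE or total-count scaling), with a median log2 change of -0.75 beside -0.18 over all genes tested. Ndufa4, a small subunit of the chain, had 214, 222, 223 and 184 CPM at 3 wk, against 472, 478, 479.8 and 398 CPM at 18 h (-1.12 ± 0.08, adjusted p = 5.8e-05). Sdhb, the iron-sulphur subunit of complex II, fell by 1.27 ± 0.12 (adjusted p = 0.00018), while its partner Sdha had 434, 438, 449.8 and 392 CPM at 3 wk and 422, 473, 436 and 431 CPM at 18 h, a difference of -0.04 ± 0.08 (adjusted p = 0.82). Of 31 proteasome genes, 14 fell and none rose, with a median of -0.63. Beside Psmd1, Psmb6 and Psmc3 fell by 1.20 ± 0.13 and 1.28 ± 0.17 (adjusted p = 0.00047 and 0.0014). Of 71 tested genes for cytosolic ribosomal proteins, 14 fell and none rose, with a median of -0.72. That median depended on the fit. With no replicate block it was -0.47, beside -0.72 for the respiratory list, -0.59 for the proteasome list and 0.002 over all genes tested. After thinning it was -0.59 over the 59 ribosomal protein genes still tested. Rpl32, a protein of the large subunit, had 49.1, 54.5, 69.4 and 61.5 CPM at 3 wk, against 157, 165, 156 and 139.8 CPM at 18 h (-1.41 ± 0.14, adjusted p = 0.00027), and 26.1% of its 50-nt words occur in other genes. Scaled to total counts, 5 respiratory, 3 proteasome and 5 ribosomal protein genes fell and none rose. The transcripts of these 3 lists were short, with median lengths of 913, 1581 and 954 nt, beside 3073.5 nt over all tested genes.

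Other hepatocyte functions were split between the directions, beside 3.64% higher and 6.49% lower among all tested genes. Those all-gene shares are not matched for level, and 45.1% of genes between 100 and 1000 CPM were called in either direction. Whether these lists were called more often than genes of their own level was not tested. Among 30 cytochrome P450 genes of drug metabolism, 5 rose and 8 fell. Cyp2e1, the P450 that oxidises ethanol and furan, had 4463, 4416, 4740.2 and 4567 CPM at 3 wk, against 7371, 6595, 6864 and 6497 CPM at 18 h, and fell by 0.59 ± 0.06 (adjusted p = 0.00027). Cyp2c38, of another subfamily, had 272, 229, 280.0 and 272 CPM at 3 wk, against 141, 129, 162 and 124 CPM at 18 h, and rose by 0.92 ± 0.10 (adjusted p = 0.00061). Of 29 NRF2 targets, the antioxidant and conjugation genes, 4 rose and 7 fell. Gstm1, a glutathione S-transferase, had 3384, 3134, 4114 and 4467 CPM at 3 wk and 1904, 1751, 2023 and 2026 CPM at 18 h (0.96 ± 0.07, adjusted p = 5.8e-05). Gstp1, another of these transferases, went the other way with -1.66 ± 0.22 (adjusted p = 0.0012), although 62.3% of its 50-nt words occur in other genes. With total-count scaling the P450 list had 5 rises and no falls and the NRF2 list 6 rises and 1 fall.

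In the liver lobule, pericentral genes, those expressed around the central vein, rose for 4 and fell for 3 of 16 members, and periportal genes rose for 1 and fell for 7 of 16. Beside these and the next lists, 3.64% of all tested genes rose and 6.49% fell, without matching for level. The periportal rise was Pck1, the enzyme that commits carbon to glucose synthesis, with 3657, 3407, 2947 and 3902 CPM at 3 wk, against 1507, 1517, 1456 and 1738 CPM at 18 h (1.16 ± 0.07, adjusted p = 1.9e-05). Its fresh-frozen pieces, at 2769, 2861 and 3791 CPM, overlapped the 3 wk range. Fatty acid oxidation genes fell for 7 and rose for 2 of 27, and bile acid genes fell for 6 and rose for 2 of 21. Of 20 lipogenesis genes, Scd1, Elovl5 and Acly rose and Me1 fell, and 26.5% of the 50-nt words of Me1 occur in other genes. Elovl5, which lengthens polyunsaturated fatty acids, had 1085, 975, 1003 and 846 CPM at 3 wk, against 504, 533, 539.7 and 431 CPM at 18 h (0.96 ± 0.08, adjusted p = 0.00010). Among 26 hepatocyte factors there were 3 rises and 3 falls. Cebpb and Cebpa rose by 1.07 ± 0.12 and 0.78 ± 0.11 (adjusted p = 0.00062 and 0.0022). Nr1i3, the xenobiotic receptor CAR, fell by 0.80 ± 0.14 (adjusted p = 0.0054), but 72.5% of its exon bases overlap Tomm40l on the other strand. When scaled to total counts, the pericentral list had 6 rises and no falls, the periportal list 1 of each, the fatty acid oxidation list 5 rises and no falls, the bile acid list 4 rises and no falls, the lipogenesis list 3 rises and no falls, and the factor list 4 rises and no falls.

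Of 29 splicing factors, 6 rose and 2 fell, beside 3.64% of all tested genes higher and 6.49% lower, and 10 rose with none falling when scaled to total counts. Sf1, which recognises the branch point of introns, had 216, 215, 205 and 240.5 CPM at 3 wk, against 114, 115, 123 and 119.7 CPM at 18 h (0.89 ± 0.10, adjusted p = 0.00074), while Srsf2, a serine- and arginine-rich splicing factor, fell by 1.10. The clock repressors Nr1d1, Nr1d2 and Bhlhe40 rose by 0.47 to 0.63 among 16 clock genes, with none falling. Jund, a component of the AP-1 factor, was the 1 call among 15 immediate early genes, with 83.0, 71.4, 73.4 and 109 CPM at 3 wk and 31.3, 35.9, 32.3 and 33.6 CPM at 18 h (1.32 ± 0.17, adjusted p = 0.0012). Of its exon bases, 52.6% overlap a gene on the other strand. Among 14 nuclear-retained long noncoding RNAs 1 rose and 1 fell, and 4 rose with none falling when scaled to total counts. Neat1, the scaffold RNA of paraspeckles, rose by 0.52 ± 0.08 (adjusted p = 0.0030), and Meg3, an imprinted RNA, fell by 0.95 ± 0.21 (adjusted p = 0.019). Malat1, the RNA of nuclear speckles, had 2203, 2429.8, 1529 and 2296 CPM at 3 wk and 1776, 1344, 1805 and 3098 CPM at 18 h, a difference of 0.12 ± 0.17 (adjusted p = 0.74). Stress lists were called about as often as all genes (10.1%), with 2 rises among 20 p53 targets (Ei24 and Mdm2), 1 fall among 17 heat shock genes (Hspe1), 1 rise among 18 ER stress genes (Hyou1), 1 rise and 1 fall among 19 hypoxia genes (Vegfa and Ldha) and 2 falls among 20 interferon-stimulated genes (Bst2 and Irf7). Scaled to total counts, these lists had 3, 1, 3, 1 and 0 rises and no falls, and 5 clock genes rose. Of the 50-nt words of Hspe1, 36.1% occur in other genes. Cholesterol synthesis genes rose for 2 and fell for 2 of 21 (7 rises and no falls when scaled to total counts), zinc finger genes rose for 5 (1.79%) and fell for 1 of 279 (14 and 1), and no cell cycle or histone gene passed among 20 and 7 tested.

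**Figure D3:**
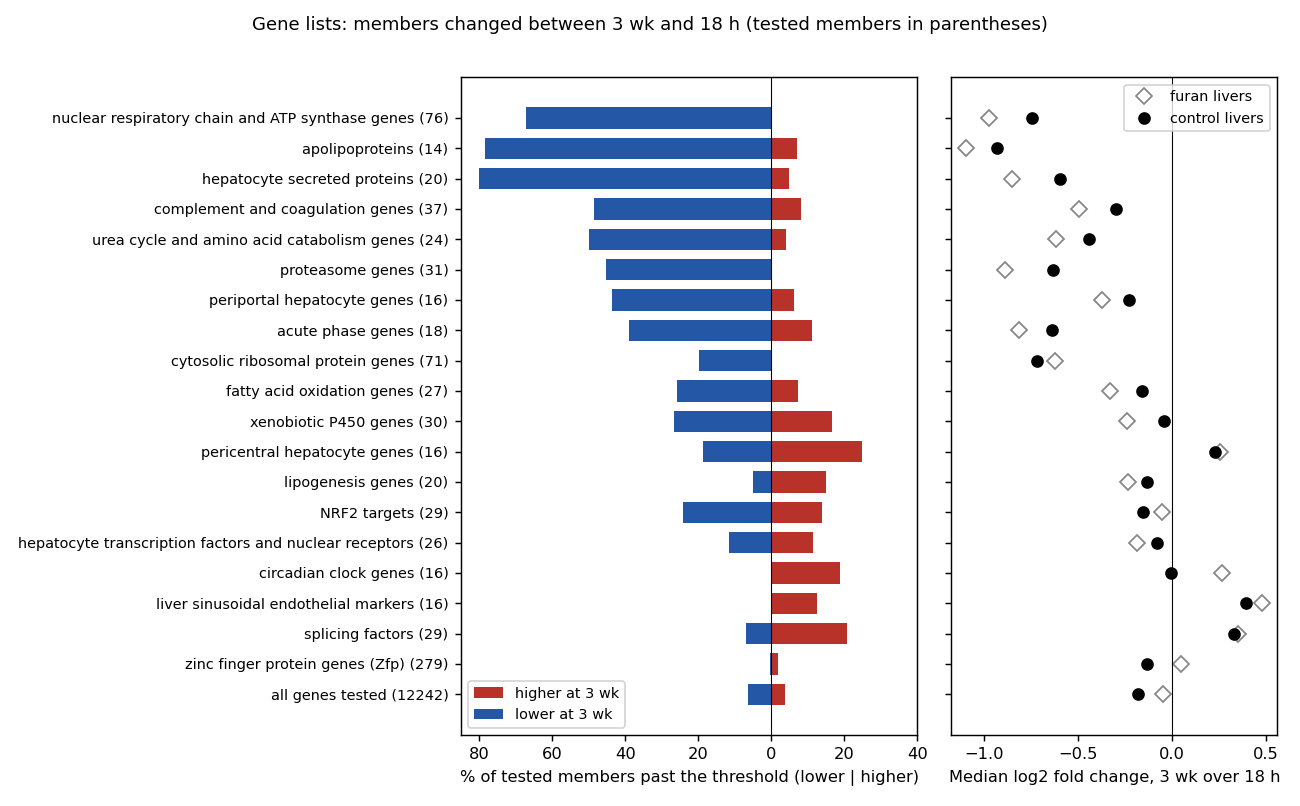
Left, share of each list's tested members that were lower (blue, leftward) or higher (red, rightward) at 3 wk than at 18 h; right, median log2 fold change of the list in furan livers (diamonds) and control livers (circles). The respiratory chain list had 51 of 76 members lower and none higher, while all genes tested, not matched for level, had 6.49% lower and 3.64% higher.

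Markers of the other cells of the liver were called at shares near the 10.1% of all genes tested, or not at all. Of 16 sinusoidal endothelial markers, Dnase1l3, a secreted nuclease, and Ehd3, a membrane trafficking protein, rose, and no member fell. Dnase1l3 had 249, 210.0, 229.7 and 167 CPM at 3 wk, against 141, 128, 133 and 113 CPM at 18 h (0.72 ± 0.10, adjusted p = 0.0020). The summed share of this list was 0.111% to 0.133% of counts at 3 wk and 0.0800% to 0.0848% at 18 h (exact permutation p = 0.029, adjusted p = 0.0615). This was not particular to endothelial markers. The shares of p53 targets, NRF2 targets, heat shock, hypoxia and ER stress genes and splicing factors were also higher at 3 wk, with the same p-values. Those of apolipoproteins and proteasome genes were lower, again with the same p-values. In bulk tissue the number of cells of a type and the RNA recovered from each cannot be told apart. Of 17 tested Kupffer cell and macrophage markers, the complement gene C1qc rose (0.68 ± 0.16, adjusted p = 0.028), and of 17 stellate cell and fibroblast markers Rgs5 rose and Ecm1 fell. With total-count scaling these 3 lists had 3, 1 and 1 rises and no falls. No cholangiocyte, lymphocyte or neutrophil marker passed among 9, 9 and 3 tested, nor did 1 red blood cell gene.

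The summed share of skeletal muscle transcripts was raised in 2 of the 3 wk pieces. The 18 muscle genes together took 0.00203%, 0.0757%, 0.000943% and 0.0260% of counts at 3 wk, against 0.00183%, 0.00181%, 0.00197% and 0.00154% at 18 h, so animals 3 and 6 were high and animals 2 and 4 at the level of the 18 h pieces. Only 4 muscle genes had enough counts to be tested, and 0 passed, with 2 fold changes above and 2 below 0. Tnnt1 and Eno3 were the negative ones, at -4.94 and -0.18 (adjusted p = 0.31 and 0.87). Atp2a1, the calcium pump of fast muscle, had the largest positive change. It had 1.15, 73.2, 0.0833 and 40.1 CPM at 3 wk, against 0, 0.643, 1.15 and 0.776 CPM at 18 h (adjusted p = 0.13). The rise of Ttn was largest in the same 2 libraries. Whether muscle tissue in the sections had a part in it was not tested. Ttn stood at 3.46 and 2.42 CPM in animals 2 and 4 at 3 wk, still above the 18 h range of 0.182 to 1.02 CPM.

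In control livers the change across all tested genes varied with the length of the transcript and with its level. With genes placed in 5 groups of equal size, the shortest transcripts (up to 1751 nt) had a median log2 change of -0.58, and the next groups had -0.28, -0.13, -0.02 and 0.08. Among the shortest 15.7% of genes fell and 2.26% rose, against 3.20% and 4.93% in the longest. The 3′ untranslated region showed the steeper gradient, with a median of -0.68 where it was at most 373 nt long and 0.08 where it was longest, while the groups by coding length ran from -0.29 to -0.04. Of the genes with the shortest 3′ untranslated regions, 18.1% fell. Transcripts whose last 300 nt were rich in G and C were lower too, with medians of 0.03 in the poorest group and -0.48 in the richest. Restricted to genes with a mean of at least 5 CPM, the groups by length ran from -0.46 to 0.16. Spearman's rho across the 12174 genes with an annotated transcript was 0.270 for length and -0.215 for the GC content of the end. It was 0.325 for the 3′ untranslated region, over the 11801 genes with an annotated coding sequence. For the mean level rho was 0.303, above that for length. The fifth with the lowest level, up to 4.12 CPM, had a median of -1.23, and the other level groups had medians from -0.24 to -0.02. In genes with a mean of at least 5 CPM, rho was 0.054 for level, 0.317 for length and 0.378 for the 3′ untranslated region. Genes are not independent replicates, and length, GC content and level are related to each other.

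Genes with A-rich windows departed from the gradient with length. Genes whose richest 30 nt held up to 13 adenosines had a median change of -0.52, those with 20 to 22 a median of 0.00, those with 26 or 27 a median of -0.35 and those with 28 to 30 a median of -0.65. Among the 319 genes with 26 or 27 and the 102 genes with 28 to 30, 18.2% and 27.5% fell, against 2.01% of those with 20 to 22. The same held within the longest transcripts: of those over 5104 nt, 19.2% of the 214 genes with at least 26 adenosines fell, against 1.67% of the 2220 genes with fewer. At least 26 adenosines occurred in 10.9% of all falls, in 1.58% of all rises and in 3.46% of all tested genes. Among changes of at least 2-fold they occurred in 20.5% of 278 falls and in 0.971% of 103 rises.

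**Figure D4:**
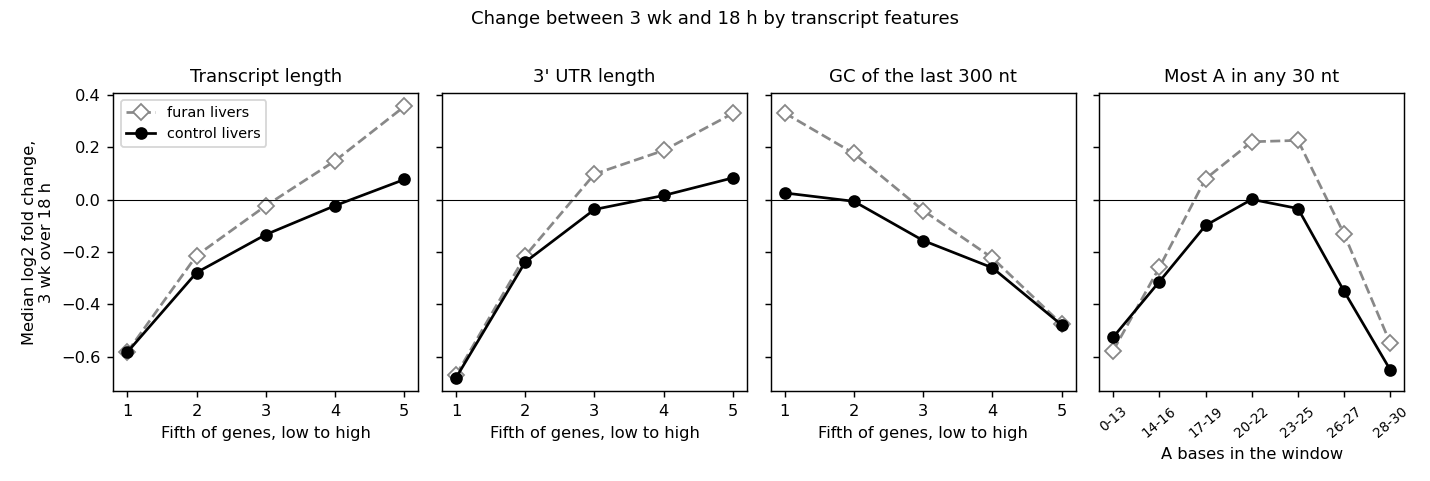
Median log2 fold change of 3 wk over 18 h for 5 equal groups of genes by transcript length, 3′ untranslated length and GC content of the last 300 nt, and by the number of A in the richest 30 nt, in furan livers (diamonds) and control livers (circles). The medians of control livers run from -0.58 to 0.08 with length and fall again to -0.65 where the richest window holds 28 to 30 A.

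The number of genes without a count differed among the 3 wk libraries. Of 9304 genes with a mean of at least 5 CPM at 18 h and a count in all 4 of those libraries, 19, 61, 43 and 277 had no count in the 3 wk piece of animals 2, 3, 4 and 6. The genes were chosen for their counts at 18 h, so the same number cannot be set against the 18 h libraries. The deepest losses were in animal 6, where 6 genes above 20 CPM at 18 h had 0 counts. Vps51, a subunit of a vesicle tethering complex, had 67, 156, 203 and 0 counts at 3 wk and 383, 476, 372 and 297 counts at 18 h, and Apip, an enzyme of methionine salvage, had 87, 42, 149 and 0 counts at 3 wk and 277, 412, 414 and 203 counts at 18 h. Neither passed the test (adjusted p = 0.40 and 0.27).

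Common reference genes did not keep 1 level. Actb, the cytoplasmic actin, had 1234, 1296, 1684 and 1581 CPM at 3 wk, against 614, 569.7, 626 and 646 CPM at 18 h, and rose by 1.23 ± 0.09 (adjusted p = 5.1e-05). Ywhaz, a 14-3-3 protein, rose by 0.93 ± 0.11 (adjusted p = 0.00087). Eef1a1, a translation elongation factor, and Rplp0, a ribosomal stalk protein, fell by 0.60 ± 0.12 and 0.74 ± 0.15 (adjusted p = 0.010 and 0.013). Neither passed when scaled to total counts, where Actb and Ywhaz still rose. Of the 50-nt words of Eef1a1 and Rplp0, 59.2% and 41.8% occur in other genes, which makes their counts uncertain. For Actb and Ywhaz these shares were 14.2% and 19.9%. Sdha, B2m and Hprt differed by -0.04 ± 0.08, 0.15 ± 0.08 and -0.05 ± 0.19, with adjusted p of 0.82, 0.33 and 0.91. Gapdh, of whose 50-nt words 82.5% occur in other genes, had 1.15, 0, 0 and 8.77 CPM at 3 wk and 0.485, 1.07, 1.21 and 1.36 CPM at 18 h, too few for a comparison.

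Differences between animals were visible at both formalin times in some abundant genes, picked here after their values were seen. Mup11, a major urinary protein, had 365, 217, 185 and 53 CPM at 3 wk and 235, 110.4, 102 and 29.7 CPM at 18 h, so animal 2 was highest and animal 6 lowest at both times, and it rose by 0.83 ± 0.11 within animals (adjusted p = 0.0013). Its reads are uncertain, because 89.0% of its 50-nt words occur in other genes. Scd1, the desaturase that makes oleate, had 3513, 4823, 4911 and 6627 CPM at 3 wk and 2239, 3124, 3182 and 4333 CPM at 18 h, the 4 animals in the same order, with a rise of 0.63 ± 0.05 (adjusted p = 0.00014). Clec4f, a lectin of Kupffer cells, was highest in animal 4 at both times, with 107, 138, 219 and 82.9 CPM at 3 wk and 138, 134, 221 and 126 CPM at 18 h, and did not differ between them (-0.23 ± 0.13, adjusted p = 0.35). The groups overlapped in Scd1 and Mup11 although every animal was higher at 3 wk.

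Livers of 4 furan-treated animals, which share no library with the control livers, changed in the same direction for nearly all of these genes. Of the 1240 genes called in control livers, 1238 (99.8%) had the same sign in furan livers, and 1182 (95.3%) were also called there, beside 36.1% called among all 12671 genes tested in furan livers (15.9% higher and 20.2% lower at 3 wk). Over all genes tested in both, 75.3% had the same sign. The other 2 genes had the opposite sign and did not pass in furan livers. All 30 of the largest rises and falls had the same sign, and 27 passed. Sec62 fell by 2.57 ± 0.11 in furan livers and by 2.71 ± 0.08 in control livers, Eif5b fell by 2.50 ± 0.14 in both, and Actb rose by 1.25 ± 0.07 in furan livers and by 1.23 ± 0.09 in control livers. Ttn (1.01 ± 1.11, adjusted p = 0.52), P2ry4 (1.12 ± 0.45, adjusted p = 0.058) and Rab31 (0.71 ± 0.31, adjusted p = 0.080) did not pass in furan livers. Nthl1, at 0 in the 3 wk pieces of control livers, had 1.82, 3.79, 0 and 2.71 CPM at 3 wk and 5.74, 6.18, 7.75 and 6.77 CPM at 18 h in furan livers. A test of the difference between furan and control livers called 0 of 13282 genes with edgeR, where 818 had an unadjusted p under 0.05 and the smallest adjusted p was 0.78, and 2 genes passed without control animal 6. No other tool was run for that difference, and with this spread a gene that does not pass is not shown to change alike.

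**Figure D5:**
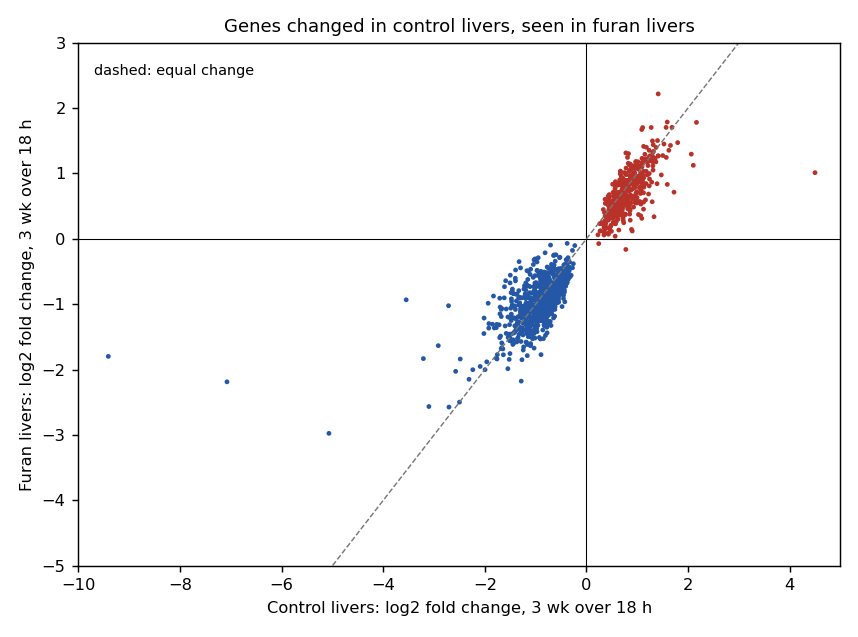
Log2 fold change of 3 wk over 18 h in furan livers against that in control livers for the 1240 genes called in control livers, coloured by direction in control livers, with equal change dashed. Points lie in the matching quadrants for 1238 of the 1240 genes, and Nthl1, fitted at the far left, had 0 counts at 3 wk in control livers.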

How the data were processed

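The deposited table held whole-number counts of reads per gene for the samples of the series, made by the authors. Per the submitters' processing notes the tools named were CASAVA 1.8.2, STAR 2.3.0 and featureCounts 1.4.4 and the genome build mm9; the annotation used for counting is not given in the sources used here. Of the table's columns, 22 carried the name of a labelled sample, and 2 others were not used.

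Groups and animal numbers came from the labels. Genes were filtered with filterByExpr, scaled with TMM factors and tested with edgeR 4.0.16 (R 4.3.3) by the quasi-likelihood F test, with the animal as a block because each liver was divided between the formalin times. P-values were adjusted by Benjamini-Hochberg over all genes tested, the threshold was 0.05, and SE is the log2 fold change divided by the square root of F. Deviations from the group mean correlated between same-numbered libraries at r = 0.0875, 0.0190, 0.159 and 0.0739 for animals 2, 3, 4 and 6. The 3 wk library of animal 3 correlated more with the 18 h library of another animal than with its own. No label places the animals in batches. The edgeR p-values rest on how much the difference within animals varied among these 4 animals, with dispersions shared in part across genes. The named genes were the 15 largest changes in each direction among calls that moved alike in every animal and averaged 5 CPM or more in 1 group. Other genes named were list members of smallest p, reference genes, or genes picked after their values were seen. Some genes and 1 sequence that the rule names are not reported here. The comparison, the gene lists and the other genes named were chosen with earlier results of these data known.

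Library measures were compared by exact two-sided permutation tests. Transcript features came from the longest transcript of each gene in GENCODE M21 (GRCm38), protein-coding where there was one, and 98.501% of genes were matched by symbol or synonym, and 50-nt words shared between genes came from the same transcripts. That build differs from the one used for counting, so no position was joined to the counts. In counts simulated for this comparison over 12242 genes, 200 of them changed, the test recovered none at 1.5-fold, 27.5% at 2-fold and 51.5% at 4-fold. Of the genes at or above 50 CPM it recovered 83.7% at 2-fold and 100% at 4-fold. Over all levels, 11.3% of the calls at 2-fold and 1.90% at 4-fold were false. The simulated animals shared nothing between their 2 pieces, and fewer genes changed than were called in the data. The recovered shares therefore need not hold for the real comparison. Alternatives were other tools (DESeq2 1.42.0, limma 3.58.1 with voom), scalings, filters, thinning, no block and leaving out each animal.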

Additional observations from a re-analysis of the deposited data

Results flagged for a closer look

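In groups of 4 libraries, a value was marked when its gap to the nearest other library was too large a part of the group's range (Dixon's criterion). 18 of 130 groups were marked, 8 at 3 wk and 10 at 18 h, where chance marks about 1 in 20.

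At 18 h, all 10 were values of the library of animal 6. Its 10 largest genes took 51.6% of counts (at most 26.6% in the others), its 100 largest 65.4% (46.9% to 47.3%), and Rn45s 37.3% (6.42% to 7.22%). Rn45s stood at 588807 CPM (65724 to 74312) and Lars2, a mitochondrial leucyl-tRNA synthetase, at 33853 CPM (1762 to 2377). Arl5b was at 7.47 CPM (2.97 to 3.26), Dhdh at 59.7 (34.7 to 37.4), Tshz1 at 114 (68.8 to 76.0), Ywhaz at 82.6 (109 to 113) and Polr2a, the largest subunit of RNA polymerase II, at 55.5 (42.8 to 44.8).

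At 3 wk the marks were spread over the animals. Animal 2 had a total of 3666173 counts (9708205 to 10481659 in the others), and was apart in Rhpn2 at 18.2 CPM (27.4 to 28.3) and Nmi at 12.4 (0.0914 to 2.19). Animal 3 was apart in Ttn at 118 CPM (2.42 to 13.4) and Ppia at 2.28 (0 in the others). Animal 4 was apart in Sox4 at 2.83 CPM (0 to 0.274), and animal 6 in Arl5b at 40.5 (11.1 to 14.5) and Gapdh at 8.77 (0 to 1.15).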

How the results depend on the processing

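No gene named in the text that passed in control livers, or passed under an alternative, changed sign under that alternative, while 23 of the 1240 called genes had the opposite sign when scaled to total counts. Of the 30 largest rises and falls, 14, 16, 14 and 1 no longer passed without animals 2, 3, 4 and 6, and 17 did not pass at a fold of at least 1.5. The 1240 genes called in control livers (446 higher, 794 lower) became 1896 (670 and 1226) with DESeq2, 1867 (823 higher) with limma-voom and 2322 (789 and 1533) in 1 model of all 16 FFPE libraries. A fold of at least 1.5 left 154 (44 and 110). Scaling to total counts gave 942 higher and 122 lower. With no replicate block there were 1292 calls, of which 1075 were among the 1240. Leaving out 1 animal gave 549 to 1711 calls, 162 to 603 higher and 387 to 1108 lower. Without the 18 h library of animal 6 there were 966 calls and without the 3 wk library of animal 2 there were 1393, both with no replicate block and chosen after seeing the data. The same genes called in furan livers numbered 1115 to 1178 when 1 furan animal was left out, and 0 to 2 genes differed between furan and control livers when 1 animal was left out.

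With the replicate block, an exact sign-flip test of the library measures cannot reach p = 0.05 with 4 animals, so 3 wk minus 18 h passed for none of -8959267 total counts, -2926.75 genes with a count, -1992.25 after thinning, -11.5 and -10.2 percentage points in the 10 and 100 largest genes and -6.26 without Rn45s. Leaving out 1 animal (smallest exact p = 0.1) these ran from -9808314 to -7503832, -3236 to -2632, -2359 to -1633, -14.5 to -5.08, -12.4 to -5.59 and -6.57 to -5.59. Few calls were made under 20 CPM, and whether depth or the spread at 3 wk sets that was not tested.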
